A study of Canis lupus familiaris with 6 samples.

Results

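TIMM8A, PHB, APEX1, TCOF1 and RBM12 are 5 genes of mitochondria, nucleolus, DNA repair and RNA binding that were picked by their lower signal at 60 h than at 30 h in a dog kidney cell line. They are 5 of 1437 genes that could be named on the arrays, and they carry 8 of 43603 probes. TIMM8A, APEX1 and TCOF1 have 1 probe each, RBM12 has 2 and PHB has 3. The genes were picked for falling from 30 to 60 h, so the mean difference of 60 h minus 30 h over both arms is described here and not tested. How the choice weighed the arms is not stated, and a choice made in each arm would bear on the arm comparisons too.

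The cells were MDCK-II, an epithelial line from dog kidney tubules, in a derivative called scribKD whose short hairpin RNA against the polarity scaffold scribble is switched on by tetracycline, and each RNA was read on a one-colour Agilent array, 6 in all. In the arm with tetracycline, 5 µg/ml was added 6 h after plating 154000 cells a well, and the arm without tetracycline carried the same hairpin with no drug added. RNA was taken at 30, 45 and 60 h, and the RNA of 3 wells was mixed before labelling, so each condition is 1 array with no replicate. An effect of the drug itself and one of the hairpin cannot be told apart, since no line without the hairpin is among the 6 arrays.

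The small Tim proteins, of which TIMM8A is one, are chaperones that carry membrane proteins across the space between the mitochondrial membranes. PHB, prohibitin, forms ring complexes with its partner PHB2 in the inner mitochondrial membrane, where they take part in protein quality control. APEX1 is the main endonuclease that cuts DNA at abasic sites in base excision repair, TCOF1 encodes treacle, a nucleolar protein needed for ribosomal RNA synthesis, and RBM12 encodes a protein with RNA recognition motifs. These roles come mainly from human, mouse and yeast work and are given as background.

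Values are log2 of the processed signal, the scanner program's background-subtracted brightness, less the 75th percentile of the same array, so that arrays of different brightness can be compared. Every one of the 8 probes passed the program's mark for signal well above background on each of the 6 arrays, and 0 of their spots were marked as outliers. The scanner program put the error of a single spot at 10.0% to 11.3% of its signal. For the brightest probe of each gene this gives an error of 0.20 to 0.22 log2 units on a step between 2 arrays, which does not include the spread between cultures. Levels are compared between arrays for the same probe and not between probes. Since RNA was pooled from whole wells, fewer cells of a kind and less RNA per cell cannot be told apart.

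The 6 arrays lie on 2 slides. Slide 1 holds both 30 h arrays and the 45 h array without tetracycline, and slide 2 holds the 45 h array with tetracycline and both 60 h arrays. The step from 45 to 60 h with tetracycline and the step from 30 to 45 h without it were therefore measured within a slide, and the other steps across slides. On each array 64.3% to 68.8% of spots passed the background mark, and array profiles correlated at 0.986 to 0.991. Of 19 tubule epithelial markers 8 had a named probe, and all 8, CDH1 and OCLN among them, were well above background on every array. Probes named for other cell types were not all dark: 4 of 5 fibroblast genes, 2 of 3 leukocyte genes and 2 of 2 endothelial genes passed the same limit on all 6 arrays, while DCN and MS4A1 passed it on none. Their part in the results was not tested.

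All 5 genes were lower at 45 h than at 30 h and lower at 60 h than at 45 h, in both arms, on the brightest probe of each gene. With tetracycline, signal at 60 h was 1.69-fold to 1.93-fold lower than at 30 h, and without it 1.70-fold to 2.38-fold lower. For scale, 17.1% of the 27581 features tested were lower at both steps in both arms, and so were 96.6% of the 1162 features that fell from 30 to 60 h at an adjusted p under 0.05. A feature is the brightest probe of a named gene, or any unnamed probe. Nothing is read from the count of 5 of 5, because the choice of the genes used these arrays. That fall was called for 4.21% of features and the opposite rise for 3.94%, or 1162 and 1087 features, a split that was 1816 and 930 with each array scaled by its median and 827 and 1227 with the series matrix values. With the slide as a term, with no detection filter, or with any array left out, 0 features were called, so every call of this contrast given here depends on those choices. By size, TIMM8A stood at place 2, APEX1 at 4, TCOF1 at 5, RBM12 at 6 and PHB at 9 among the 36 named genes that fell. The place of PHB rests on its brightest probe, since the fall was not called on its other probes.

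TIMM8A, the mitochondrial import chaperone, showed the widest spread over the arrays. With tetracycline its level was 0.14 at 30 h, -0.12 at 45 h and -0.70 at 60 h, and without tetracycline it was 0.09, -0.29 and -1.16. The level stepped down in order of time in each arm, and the 60 h array without tetracycline was the lowest of the 6. The signal at 60 h was 1.79-fold lower than at 30 h with tetracycline and 2.38-fold lower without it. The mean difference of 60 h minus 30 h was -1.04 ± 0.13 (SE from limma's fit over the 6 arrays). On the brightest probe of each gene, the arms lay furthest apart at 60 h for TIMM8A, while the dimmer PHB probes, described next, were further apart still.

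PHB, the inner membrane scaffold, was represented by 3 probes that did not give the same picture. On the brightest, A_11_P0000016479, the level with tetracycline was 4.81 at 30 h, 4.57 at 45 h and 4.06 at 60 h, and without tetracycline it was 4.77, 4.67 and 3.996. Both 60 h arrays were the lowest on that probe, and the arms lay within 0.10 of each other at each time. On A_11_P050736 the level with tetracycline was 3.84, 3.75 and 3.84 at 30, 45 and 60 h, and without tetracycline 3.77, 3.57 and 3.08. On A_11_P081986 the level with tetracycline was 1.604, 1.602 and 1.574, and without tetracycline 1.48, 1.35 and 0.87. These other probes thus stayed level over time with tetracycline and were lowest at 60 h without it, while the brightest probe was lower at 60 h in both arms.

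The disagreement among the PHB probes is larger than the error of a spot. From 30 to 60 h with tetracycline the difference was -0.76 on the brightest probe, -0.00 on A_11_P050736 and -0.03 on A_11_P081986. Without tetracycline the same difference was -0.77, -0.69 and -0.61, so the probes came close to each other only in that arm. Over the 6 arrays the brightest probe correlated at 0.54 and 0.55 with the other ones, which correlated at 0.99 with each other. All 3 probes are assigned to the same RefSeq transcript, and which of them follows the PHB message was not tested. The lower level of PHB at 60 h with tetracycline thus rests on 1 of its 3 probes. The mean difference of 60 h minus 30 h was -0.76 ± 0.09 on the brightest probe and -0.48 on the mean of the 3.

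APEX1, the abasic site endonuclease, had levels of 1.90, 1.53 and 1.01 at 30, 45 and 60 h with tetracycline, and of 1.91, 1.71 and 0.84 without it. The arms started together, the 45 h array with tetracycline was the lower of its pair, and the 60 h array with tetracycline was the higher of its pair. The signal at 60 h was 1.85-fold lower than at 30 h with tetracycline and 2.09-fold lower without it, and the mean difference was -0.97 ± 0.12.

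TCOF1, the nucleolar treacle gene, was a dim probe whose processed signal lay between 51.0 and 108.8. Its level was -2.55 at 30 h, -2.77 at 45 h and -3.44 at 60 h with tetracycline, and -2.55, -2.77 and -3.53 without it. The arms were nearly the same at 30 and 45 h, and both 60 h arrays stood well under the others. The signal at 60 h was 1.85-fold lower than at 30 h with tetracycline and 1.97-fold lower without it. The mean difference was -0.93 ± 0.08, and -0.57 in the setting with normexp background correction. That setting starts from median spot signal, adds an offset of 50 to every spot and then scales the arrays by quantiles.

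RBM12, the RNA-binding protein gene, had levels of 0.97, 0.74 and 0.03 on its brighter probe at 30, 45 and 60 h with tetracycline, and of 0.997, 0.621 and 0.229 without it. It is the gene of the 5 whose lowest array was the 60 h array with tetracycline. On its dimmer probe, A_11_P175873, the levels were -2.61, -2.84 and -3.37 with tetracycline, and -2.59, -2.91 and -3.10 without it. Both RBM12 probes ordered the 6 arrays with the 60 h array with tetracycline lowest and the 60 h array without it next. The mean difference of 60 h minus 30 h was -0.86 ± 0.11 on the brighter probe and -0.64 ± 0.12 on the dimmer one. In the RefSeq gene table RBM12 overlaps CPNE1, a membrane-binding copine, and CPNE1 had its own probe. CPNE1 levels were -0.71, -0.67 and -0.51 with tetracycline and -0.85, -0.84 and -0.69 without it, highest at 60 h in both arms, with a mean difference of 0.18 ± 0.08 (limma adjusted p = 0.210).

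**Figure D1:**
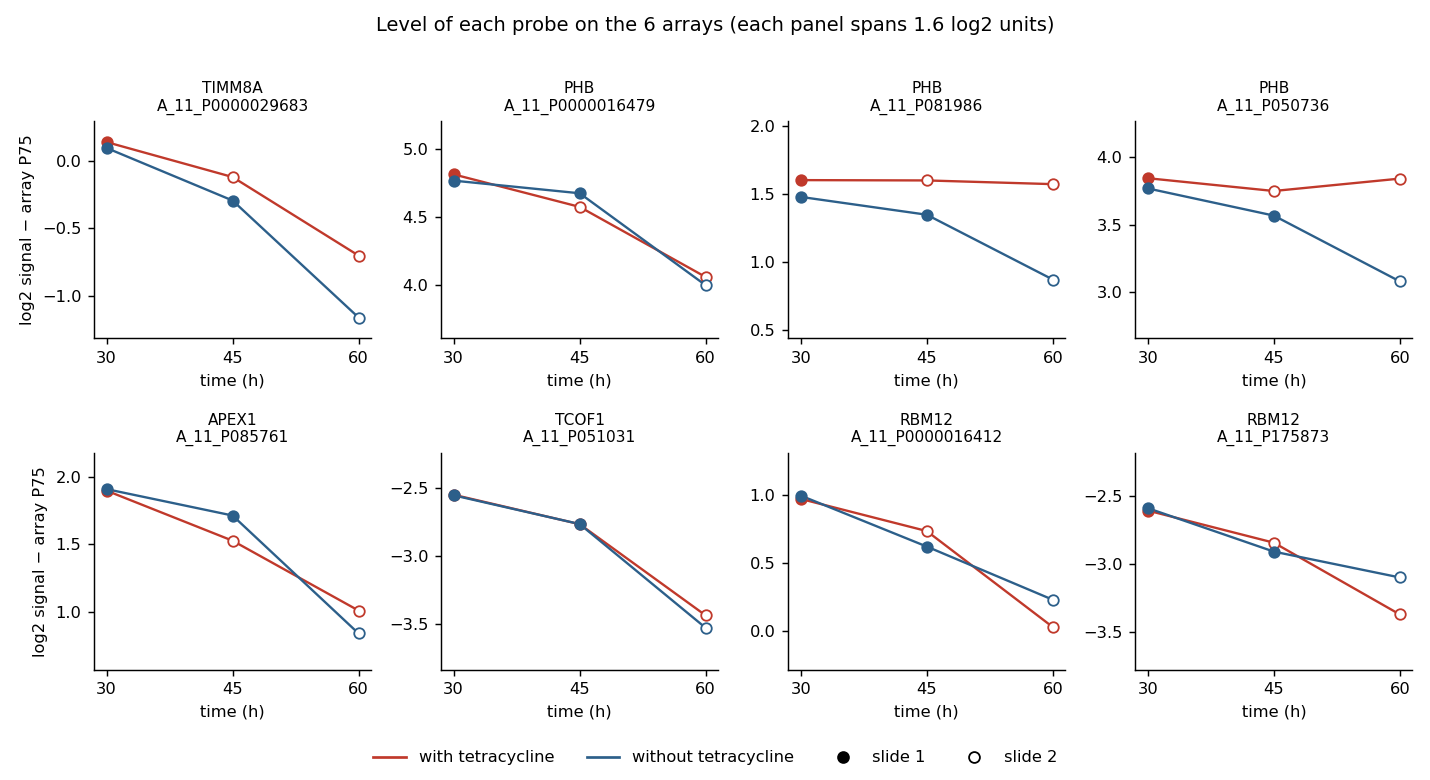
Level of each probe of the 5 genes on each array (log2 processed signal less the array's 75th percentile) against time in hours, with tetracycline and without it, 1 array per point and no error bars because no condition has a replicate. TIMM8A, APEX1, TCOF1, RBM12 and the brightest PHB probe run downward in both arms, while the 2 other PHB probes stay level with tetracycline (3.84 at both 30 and 60 h on A_11_P050736).

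Because time and slide move together, the steps measured within 1 slide were set apart. With tetracycline, the step from 45 to 60 h lay on slide 2 and was -0.58 for TIMM8A, -0.52 for PHB, -0.52 for APEX1, -0.67 for TCOF1 and -0.71 for RBM12. Each of these lay beyond the spot error of 0.20 to 0.22. The share of all features beyond that error was not computed, so nothing is read from this. The choice of the genes used the same 60 h array, so the size of this step is a description. Without tetracycline, the step from 30 to 45 h lay on slide 1 and was -0.39 for TIMM8A, -0.09 for PHB, -0.19 for APEX1, -0.21 for TCOF1 and -0.38 for RBM12. These were smaller, and those of PHB, APEX1 and TCOF1 lay within the spot error. This step shares its 30 h array with the choice. Both within-slide steps were below 0 for 31.2% of all features.

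Across the slides, the step from 30 to 45 h with tetracycline ranged from -0.37 for APEX1 to -0.22 for TCOF1, and that from 45 to 60 h without tetracycline from -0.87 for APEX1 to -0.39 for RBM12. These steps also lay beyond the spot error, that of TCOF1 with tetracycline by little (0.217 against 0.211). Nothing is read from this either. The median step of all features lay between -0.01 and 0.01 in each of the 4 cases. With tetracycline, their 5th percentile was -0.39 from 30 to 45 h, and the brightest probe of every gene lay above it. It was -0.42 from 45 to 60 h, and each of these probes lay below it. Without tetracycline it was -0.34 from 30 to 45 h, with PHB, APEX1 and TCOF1 above it and TIMM8A and RBM12 below. From 45 to 60 h it was -0.48, with RBM12 above and the others below. The genes were picked for falling, so nothing is read from this. Adding the pair of within-slide steps, which together span 30 to 60 h, gave -0.97 for TIMM8A, -0.61 for PHB, -0.71 for APEX1, -0.89 for TCOF1 and -1.08 for RBM12. This sum takes its earlier step from the arm without tetracycline and its later step from the arm with it, so it holds for the genes only as far as the arms move alike. For the other PHB probes the sum was -0.11 on A_11_P050736 and -0.16 on A_11_P081986.

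**Figure D2:**
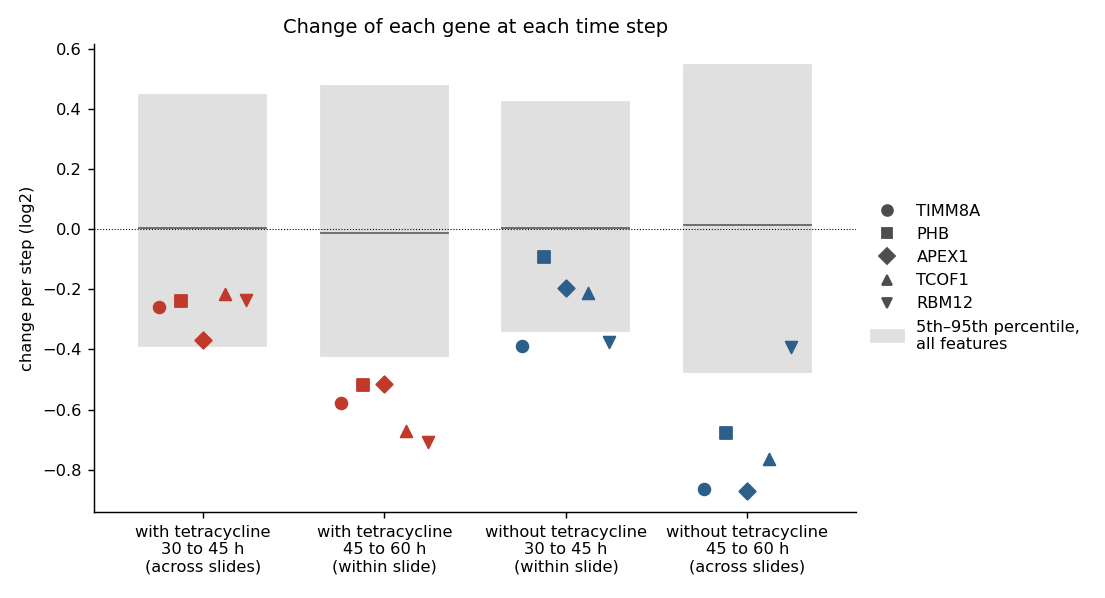
Change in log2 level at each step, 30 to 45 h and 45 to 60 h, for the brightest probe of each gene in each arm, with steps measured within a slide marked apart from those across slides. All 20 steps lie below 0, and those from 45 to 60 h, from -0.87 to -0.39, lie lower than those from 30 to 45 h, from -0.39 to -0.09.

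The middle time asks whether the levels fell evenly. The level at 45 h less the mean of 30 and 60 h does not use the difference by which the genes were picked, though it uses the same 30 and 60 h arrays. The offset between slides cancels from this difference, because the 45 h arrays are on both, but enters its error. This difference was above 0 for all 5 genes, meaning less change before 45 h than after it, against 52.8% of all features and 76.7% of the features that fell. It was 0.20 ± 0.11 for TIMM8A (95% interval -0.10 to 0.50), 0.22 ± 0.08 for PHB (0.01 to 0.42), 0.21 ± 0.10 for APEX1 (-0.06 to 0.47), 0.25 ± 0.07 for TCOF1 (0.06 to 0.44) and 0.12 ± 0.09 for RBM12 (-0.13 to 0.38). Its median over the 5 genes was 0.21, against 0.07 over the features that fell and 0.01 over all features. The profiles of the 5 genes correlated with each other at 0.896 to 0.995, so nothing is read from the count of genes above 0 or from this median. After adjustment over all features in limma none of the 5 passed, and 0% of all features did. Without adjustment PHB and TCOF1 were under 0.05, as were 831 features or 3.01%. Apart from TCOF1, these values depended on which arrays were used. Leaving out an array also upsets the balance of the slides, so the slide offset no longer cancels. A shift from the array and one from the slide cannot be told apart there. Leaving out each array in turn gave 0.11 to 0.29 for TIMM8A, 0.14 to 0.29 for PHB, 0.07 to 0.34 for APEX1, 0.23 to 0.28 for TCOF1 and 0.01 to 0.24 for RBM12. The lowest value was reached without the 60 h array without tetracycline for TIMM8A, without the 45 h array without tetracycline for PHB and APEX1, and without the 45 h array with tetracycline for RBM12. The difference also moved to 0.13 for TIMM8A without the 30 h array with tetracycline and to 0.34 for APEX1 without the 45 h array with tetracycline. For RBM12 it was 0.06 without the 60 h array with tetracycline, 0.24 without the 45 h array without tetracycline and 0.18 without the 60 h array without tetracycline. On the mean of the 3 PHB probes the difference was 0.11. On the other PHB probes the difference was 0.02 and 0.09, and on the dimmer RBM12 probe 0.04.

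The comparison of the arms asks whether switching on the hairpin moved these genes. With tetracycline minus without, averaged over the 3 times, the difference was 0.22 ± 0.10 for TIMM8A, with a 95% interval of -0.06 to 0.51 and a limma adjusted p of 0.281. It was 0.00 ± 0.07 for PHB (-0.19 to 0.20), -0.01 ± 0.09 for APEX1 (-0.26 to 0.24), 0.03 ± 0.07 for TCOF1 (-0.15 to 0.21) and -0.04 ± 0.09 for RBM12 (-0.28 to 0.20), with adjusted p from 0.814 to 0.990. None of the 5 passed, and neither did any feature (0% of 27581, smallest adjusted p 0.108). Without adjustment 0 of the 5 and 23.3% of all features were under 0.05. On the other PHB probes, fitted with every probe as a feature, the difference was 0.34 (-0.08 to 0.76, adjusted p = 0.280) on A_11_P050736 and 0.36 (-0.00 to 0.72, adjusted p = 0.216) on A_11_P081986. On the mean of the 3 PHB probes it was 0.23 (adjusted p = 0.293), against 0.00 on the brightest, so the PHB value depends on the probe. On the dimmer RBM12 probe it was -0.07 (-0.33 to 0.18). The 45 h arrays lie on different slides, so the slide offset does not cancel from the average over the 3 times. With the slide as a term, the arm difference was 0.25 for TIMM8A, 0.05 for PHB and 0.08 for APEX1. It was 0.05 for TCOF1 and -0.11 for RBM12 in that setting.

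At single times the arms were furthest apart at 60 h for TIMM8A, TCOF1 and RBM12, and at 45 h for APEX1 and the brightest PHB probe. The TIMM8A difference was 0.04 at 30 h, 0.17 at 45 h and 0.46 at 60 h, a 1.37-fold higher signal with tetracycline at the last time. For APEX1 it was -0.01, -0.19 and 0.17, for TCOF1 0.00, -0.00 and 0.09, and for RBM12 -0.02, 0.11 and -0.20. The difference at 45 h spans both slides, and those at 30 and 60 h lie within one. TIMM8A was higher with tetracycline at every time, whereas APEX1 and RBM12 changed sign among the times. On the brightest PHB probe the difference was 0.05, -0.10 and 0.06, but on A_11_P050736 it was 0.08, 0.18 and 0.76, and on A_11_P081986 it was 0.12, 0.25 and 0.70. At 60 h these PHB probes read 1.69-fold and 1.63-fold higher with tetracycline.

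The slope of the arm difference, per 15 h, asks whether the fall with time differed between the arms. The slide offset cancels from the slope but enters its error, and so its interval and p-value. The slope was 0.21 ± 0.07 for TIMM8A (95% interval 0.00 to 0.41, limma adjusted p = 0.262). TIMM8A was the one member of the 5 under 0.05 without adjustment, as were 19.0% of all features. For PHB it was 0.01 ± 0.08 (-0.23 to 0.24), for APEX1 0.09 ± 0.10 (-0.21 to 0.39), for TCOF1 0.04 ± 0.07 (-0.16 to 0.24) and for RBM12 -0.09 ± 0.10 (-0.36 to 0.19), with adjusted p from 0.663 to 0.972. None of the 5 passed after adjustment, and 0% of features did, with 5235 under 0.05 before it. The other PHB probes had slopes of 0.34 ± 0.10 (0.06 to 0.62, adjusted p = 0.217) on A_11_P050736 and 0.29 ± 0.08 (0.05 to 0.53, adjusted p = 0.218) on A_11_P081986, and the mean of the 3 probes 0.21 (adjusted p = 0.306). A weaker fall of TIMM8A with tetracycline was thus measured but did not pass the test.

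**Figure D3:**
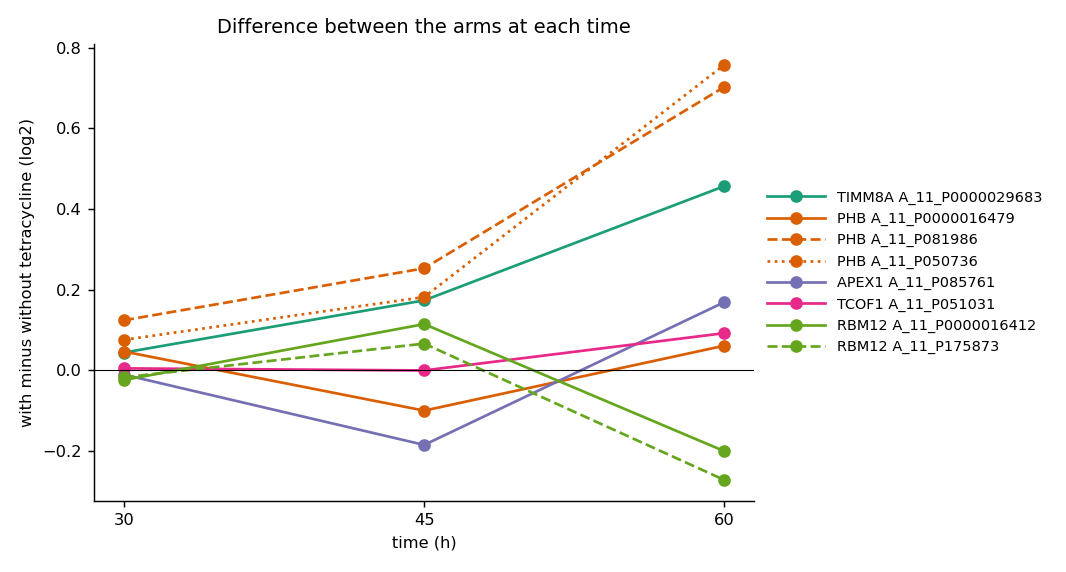
Difference in log2 level, with tetracycline minus without, for each probe at 30, 45 and 60 h, 1 array per arm and time. The TIMM8A probe climbs to 0.46 at 60 h and the 2 dimmer PHB probes to 0.76 and 0.70, while the other probes stay between -0.27 and 0.17.

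Named genes that share a pathway with the 5 gave few values, since most have no named probe. None of 37 other genes of mitochondrial protein import was tested. Of 28 genes of prohibitins and mitochondrial quality control 2 were tested, with differences of 0.32 for HTRA2, an intermembrane space protease, and 0.01 for the fusion protein MFN2. Of 57 genes of oxidative phosphorylation 5 were tested, with 3 below 0 and a median of -0.12, and none passed. The largest was CYCS, cytochrome c, at -0.51 ± 0.16, which was -0.25 with tetracycline and -0.76 without it (limma adjusted p = 0.117). SSBP1, which binds single-stranded mitochondrial DNA, was the 1 tested gene of 23 for mitochondrial gene expression and genome upkeep, at -0.32 (adjusted p = 0.104).

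In base excision repair 3 of 30 other genes were tested and none passed. APTX, which repairs aborted ligations, was -0.36 (adjusted p = 0.0657), HMGB1, a chromatin protein, was -0.23, and the scaffold XRCC1 was 0.23. Among 53 genes of other DNA repair 8 were tested, of which CENPS, a Fanconi complex and kinetochore protein, fell by 0.77 and FHIT, a diadenosine hydrolase, rose by 1.59. The median of these 8 was 0.09. The base excision partners of APEX1 with a value thus lay on both sides of 0.

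In the nucleolus and ribosome assembly 5 of 73 other genes were tested and all 5 lay below 0, with a median of -0.40 against 0.02 over all features, of which 12818 lay below 0. PPAN, a ribosome assembly factor, fell by 0.72 (adjusted p = 0.0415), and NIP7, another, missed the threshold at -0.73 (adjusted p = 0.0533). NIP7 had levels of 0.37, 0.22 and -0.13 with tetracycline and 0.36, 0.01 and -0.61 without it. NPM1, nucleophosmin, was -0.40 (adjusted p = 0.0582). DDX5 and TAF12 lay nearer to 0, at -0.24 and -0.21, and neither passed. By comparison, of 78 cytosolic ribosomal proteins 25 were tested, 12 below 0 and 13 above, all between -0.12 and 0.13, and none passed.

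In the list of 90 RNA-binding and splicing genes 10 were tested, 7 below 0 with a median of -0.18. Over all 27581 features the median was 0.02 and 12818 lay below 0. That list also held CPNE1, the copine gene that overlaps RBM12, which is counted above 0 at 0.18. The helicase DDX39B fell by 0.55 (limma adjusted p = 0.0414). Among 36 genes of MYC and growth 9 were tested with a median of -0.31, of which OAZ3, an antizyme, rose by 2.16. OAZ3 was a dim probe, with levels at 30 h of -4.18 with tetracycline and -4.38 without it. TFRC, the transferrin receptor, was -0.76 (adjusted p = 0.0518). MYC itself was -0.82 ± 0.33 (adjusted p = 0.177), with levels of 1.004, 1.087 and 0.805 with tetracycline and 1.56, 1.43 and 0.13 without it, so that its low array was the 60 h array without tetracycline. Among 58 genes of cell cycle and DNA replication 8 were tested, with a median of -0.28. The largest difference, -1.21, was that of CDC25A, a phosphatase that activates cyclin-dependent kinases. It was -0.69 with tetracycline and -1.72 without it and did not pass (limma adjusted p = 0.0684). The CDC25A probe was dim too, at -3.51 and -4.20 at 30 and 60 h with tetracycline and -3.31 and -5.03 without it. Of the 8, CENPS, the ubiquitin-conjugating enzyme UBE2S and thymidylate synthase TYMS fell, by 0.77, 0.74 and 0.47, where 4.21% of all features fell. Between the arms, and in the slope and the 45 h difference, 0 genes of all 11 lists passed, as for all features. These lists are short and share slide and time with the 5 genes, so their counts are descriptions.

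**Figure D4:**
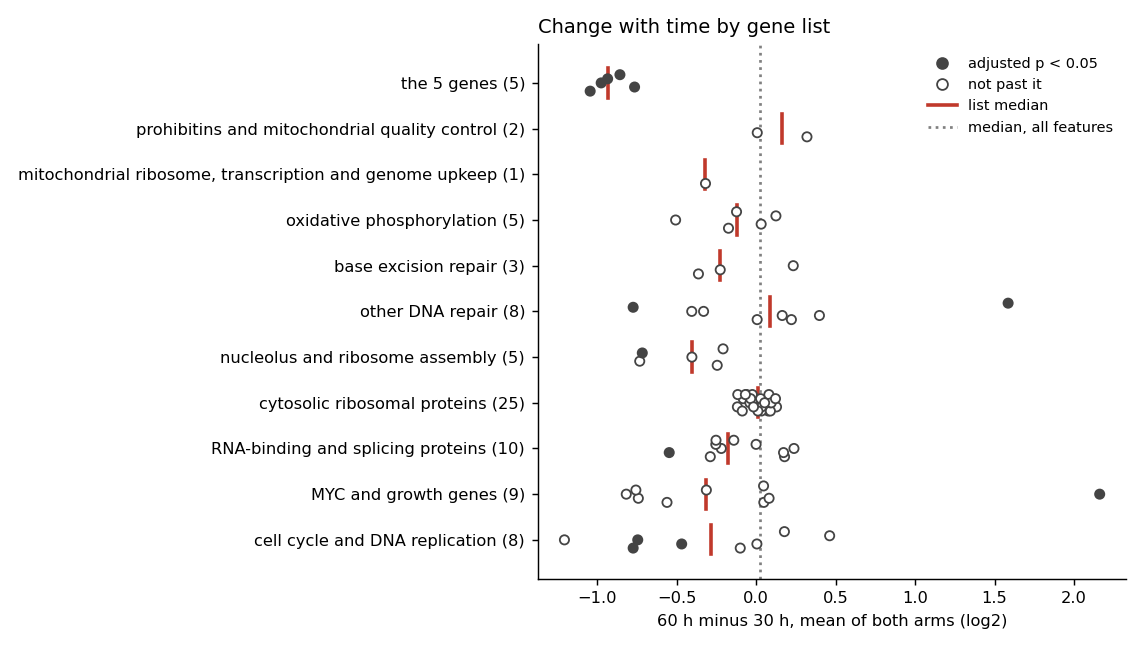
Difference of 60 h minus 30 h (log2, mean of both arms) for each tested gene of the lists, with the 5 genes themselves and the median of each list. The 5 tested genes of the list of nucleolus and ribosome assembly lie between -0.73 and -0.21, and the 25 ribosomal protein genes between -0.12 and 0.13.

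Just inside the threshold of 0.05 among named genes that fell was SLC35B4, a sugar nucleotide transporter, at -0.53, and just outside was MAT2A, which makes S-adenosylmethionine, at -0.56. The 5 genes lay further from 0 than either, between -1.04 and -0.76. Their profiles over the 6 arrays correlated with each other at 0.896 to 0.995 in 10 pairs, a description that their shared choice by time fixes in part. Of 968 other named genes on all 6 arrays, the most like the mean of the 5 were HRAS (r = 0.997), the zinc transporter SLC39A6 (0.994), CLNS1A (0.990), TRIP13 (0.988), SRP14 (0.986) and FUNDC2 (0.983). HRAS, a small GTPase, was -0.66 from 30 to 60 h with tetracycline and -0.74 without it, and TRIP13, an ATPase of the mitotic checkpoint, was -0.74 and -0.77. In all, 64 of the 968, or 6.61%, reached a correlation of 0.9 over these 6 arrays, which share time and slide.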

How the data were processed

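Per the file headers, the deposited scanner intensity is linear, background-subtracted and detrended by Agilent Feature Extraction 11.5.1.1 (version per the submitters' processing notes), and was not normalized between arrays. The deposited series matrix gives each array's intensity times 1 constant, from 2.30 to 2.62 by array, of unstated origin. Other deposited columns, such as the background mark, the outlier flag and the probe name, carry no scale.

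Spots marked as outliers were dropped, spots of a probe averaged, and log2 of the processed signal less the array's 75th percentile taken. Transcript accessions named 2326 of 43603 probes through a RefSeq table of another build, used for names and neighbours only. Features passing the background mark on all 3 arrays of an arm (27581, of which 998 are named) were fitted with limma 3.58.1 in R 4.3.3, two-sided, with Benjamini-Hochberg adjustment over all features and time as a block for the arms. The slope fit has 1 residual degree of freedom. The p-values measure spread over times or arms and not between cultures, and precision is limited by having 6 arrays. The fits were also run on simulated data with no slide offset. The planted changes there were larger than those of TIMM8A, PHB, APEX1, TCOF1 and RBM12. That run therefore does not bear on the slides or on changes of the size described here.

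The genes, lists and naming rule were chosen with earlier results of these data known. The rule names the 5 genes, up to 3 tested genes a list by size of the 60 h minus 30 h difference, the 6 most alike profiles and the neighbours of the threshold. CPNE1 and TYMS were named in addition, after their values were seen. The alternatives were other scalings, the series matrix, and normexp (on median spot signal, offset 50, followed by quantile scaling). Further ones were other detection filters, a trended and robust prior, and the mean over probes of a gene. The rest left out the time block, added a slide term, or left out times or arrays.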

Additional observations from a re-analysis of the deposited data

Results flagged for a closer look

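On the PHB probe A_11_P050736 the arms moved in opposite ways from 45 to 60 h: the level changed by 0.0914 with tetracycline and by -0.485 without it (log2). Each step is 1 array minus another, the step without tetracycline crosses slides, and the difference of the steps was not tested. The slope of the arm difference over all 3 times on that probe was 0.34 (limma adjusted p = 0.217).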

How the results depend on the processing

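Limits: each condition is 1 array, time and slide move together, and few probes are named. The count of features between the arms, 0 in the main setting, was 53 with normexp, 16 with a trended and robust prior, 17 with no time block, and 0 to 1 with a time left out. The slope count, 0 in the main setting, was 191 with median scaling, 1405 with normexp, 2 with detection on all 6 arrays and 1797 with the trended prior. The count for 60 h minus 30 h, 2249 in the main setting, was 3558 with normexp and 3771 with the trended prior. It was 0 with no detection filter, with the slide term, with the 45 h pair left out and with any array left out. Of the 5 genes none passed for arm, slope or the 45 h difference in any alternative run, and 190 of 204 such values kept their sign. The exceptions lay near 0. The PHB arm difference was -0.0103 with quantile scaling, -0.0198 with normexp, -0.00819 with the series matrix and -0.0272 to 0.0535 with a time left out. That of APEX1 was 0.00613 with median scaling, 0.0788 with the slide term and -0.0985 to 0.0788 with a time left out, and that of RBM12 was 0.0484 with normexp and -0.113 to 0.0448 with a time left out. The PHB slope was -0.0391 with quantile scaling, -0.0141 with normexp and -0.0124 with the series matrix, and the TCOF1 slope was -0.0300 with normexp. The cause of these changes was not tested. The slope could not be fitted with a slide term or with a time left out, for want of residual degrees of freedom, and the 45 h difference and 60 h minus 30 h could not be fitted without the 30 h or the 60 h pair.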
